A study of Sus scrofa with 102 samples.

Results

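The genes described here belong to the ubiquitin-proteasome system or share its domains, and were chosen by the symbols of the probes that the study listed as different between the breed types. A probe was a member where that symbol began with the name stem of ubiquitin conjugating enzymes, ubiquitin binding and UBX proteins, ubiquitin specific proteases, TRIM, FBX, KLHL, RNF, ASB, PSM, CUL, MARCH, HERC, SOCS, OTU, DTX, SKP, BTB or KCTD genes. In this way 42 probes of 32 genes were found among 2011 probes with a symbol, on an array of 43221 probes. Of the 32 genes, 9 had more than 1 member probe and 23 had 1. They comprised 3 ubiquitin conjugating enzymes, 8 RING or HECT ligases, 5 TRIM proteins, 5 substrate adaptors of cullin ligases, 4 other BTB domain proteins, 5 ubiquitin binding or UBX domain proteins, 1 deubiquitinating enzyme (USP3) and 1 proteasome subunit (PSMB9). The choice rested on the breed-type difference, so those differences are given below as a description without a test. Differences between tissues and between ages were not used for the choice and were tested. A breed-type difference at 1 age or in 1 tissue can still enter them. Where such a difference is given with its size and SE, the value in each breed type is added if it was under 2-fold in 1 of them. Values by breed type that use suckling muscle rest on labels that go against the other tissues, as described below.

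The pigs were females from LWD sows (Landrace × Large White × Duroc) mated with a Landrace boar (LWDL) or a Meishan boar (LWDM), and per the study's methods 2 such sows and 1 boar of each breed were used, so breed type and boar cannot be told apart. Subcutaneous fat, liver and longissimus dorsi muscle were taken from 12-day-old sucklings (5 LWDL, 6 LWDM) and 5-month-old fattening pigs (8 LWDL, 7 LWDM), and liver and muscle also from 85-day-old fetuses (6 of each). Each of the 102 arrays carried the Cy3-labeled RNA of 1 animal beside a Cy5-labeled pool of liver RNA from LWD sows, with no dye swap. All values below are log2 ratios of the animal over that pool for 1 probe, so a value of 0 is the level of the pool and 1 unit is a 2-fold change. Levels were compared within a probe and never between probes.

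Ubiquitin is attached to proteins by a cascade in which an E1 enzyme activates it, an E2 conjugating enzyme carries it and an E3 ligase chooses the substrate, and deubiquitinating enzymes take it off again. Many ligases are built on cullins, to which BTB and SOCS box proteins bring the substrate. Chains of ubiquitin send proteins to the proteasome, whose immune form cuts peptides for antigen presentation, and in skeletal muscle this system is known for the breakdown of fibre proteins. The lists for the proteasome core (14 genes), its regulator (17), the ubiquitin and E1 genes (10), the cullins (12) and the muscle ligases of protein breakdown (13) had no probe with a symbol, and these genes were not analysed here.

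Between 65.7% and 81.3% of the probes of an array were well above background in Cy3, and the median spot was 2.36 to 5.60 times the background. The array of LWDL fetus replicate 2 in liver stood apart, with a correlation of its ratios with the others of its group of 0.202 (0.949 to 0.959 for the other fetal livers), and its Cy3 signal was closer to fattening liver (0.963) than to its own group (0.919). The array of LWDL suckling replicate 2 in muscle also stood apart (0.182, against 0.942 to 0.967 for the other suckling muscles), and its Cy5 signal correlated at 0.739 with those of other arrays. Muscle fibre markers (12 of 18 listed genes named) averaged 5.14 to 6.76 in muscle except on that array, where they averaged 0.28. In fat they ranged from 0.66 to 5.58, and the 3 named adipocyte markers of 12 averaged 5.32 to 6.64 there. The liver markers had no named probe, so the liver label was not checked. Sucklings, fetuses and fattening pigs were scanned on different days, each of the 27 slides held 1 tissue and age, and so age cannot be told apart from the scan day. At 5 months fat was scanned on another day than liver and muscle, so that there fat against either tissue cannot be told apart from the scan day as well. Of 4284 member values, 95 were written as a ratio of exactly 0, none of them well above background, and most belonged to KCTD8 and MARCH11.

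**Figure D1:**
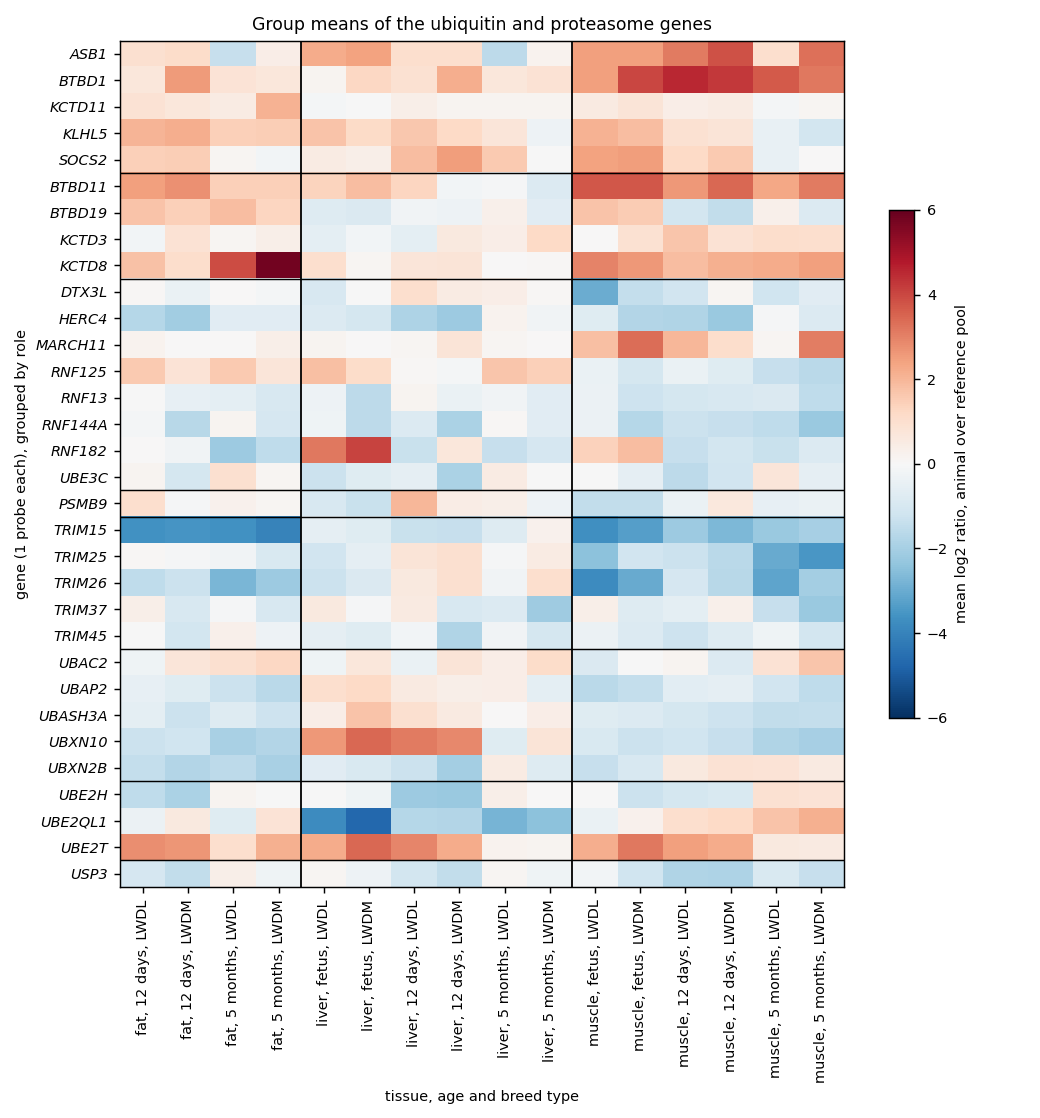
Mean log2 ratio of animal over pool (colour) for the 32 genes (rows, grouped by role, 1 probe each, the brightest) in the 16 groups (columns, by tissue, then age and breed). UBXN10 and TRIM26 were highest in liver columns, BTBD1 and BTBD11 in muscle columns, and KCTD8 in fat at 5 months.

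How the members differed between tissues was tested at each age, with breed type as a term in limma. A call needed more than a 2-fold difference and an adjusted p (Benjamini-Hochberg, all probes tested) under 0.05. For fetal muscle against liver, 16 of 38 members were called (34.7% of all probes), 7 higher (17.5% of all) and 9 lower (17.1%). In sucklings, for fat against liver 9 of 35 members were called (30.9% of all probes), 4 higher (16.2% of all) and 5 lower (14.7%), for muscle against liver 18 of 33 members were called (36.1% of all probes), 9 higher (17.1% of all) and 9 lower (19%), and for muscle against fat 9 of 32 members were called (25.7% of all probes), 5 higher (11.5% of all) and 4 lower (14.1%). At 5 months, for fat against liver 15 of 37 members were called (36.1% of all probes), 6 higher (18.7% of all) and 9 lower (17.3%). For muscle against liver at that age 18 of 35 members were called (43.5% of all probes), 5 higher (21.3% of all) and 13 lower (22.2%), and for muscle against fat 17 of 33 members were called (35.7% of all probes), 8 higher (16.5% of all) and 9 lower (19.1%). Only bulk tissue was measured, so fewer cells of a type and less RNA per cell cannot be told apart.

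Of the cullin adaptors, BTBD1, a BTB protein that binds cullin 3, was higher in muscle than in liver at each age. In fetuses it ranged from -0.19 to 2.08 (median 0.22) in liver and from 2.19 to 4.88 (median 2.67) in muscle, a difference of 2.54 ± 0.30 (SE, adjusted p = 4.07e-08). In fattening pigs it ranged from 0.16 to 2.22 (median 0.59) in fat, -0.33 to 2.57 (median 0.90) in liver and 2.83 to 5.32 (median 3.02) in muscle. At this age every muscle array lay above every fat and liver array, and muscle exceeded fat by 2.68 ± 0.25 (SE, adjusted p = 2.07e-11). ASB1, the ankyrin repeat and SOCS box adaptor of cullin 5 ligases, was not called between fetal muscle and liver, with a difference of 0.16 ± 0.29 (SE, adjusted p = 0.619). In sucklings it ranged from 0.48 to 1.70 (median 1.06) in fat, 0.43 to 1.80 (median 0.91) in liver and 0.39 to 4.27 (median 3.80) in muscle, where the lowest muscle value is that of the array standing apart. Muscle exceeded liver by 2.49 ± 0.33 (SE, adjusted p = 6.36e-07) at 12 days and by 2.82 ± 0.47 (SE, adjusted p = 2.16e-06) at 5 months. KLHL5, a BTB-kelch adaptor, was well above background on all 15 fat arrays and on none of 15 muscle arrays at 5 months. It was at least 1.52-fold higher in fat there (adjusted p = 7.43e-11), a bound taken, as all such bounds below, from the Cy3 channel alone and open to dye bias. Probes with such a bound entered the test through their brighter group alone, so that their adjusted p adds little to the bound. Where no breed type of the dimmer group had all its arrays well above background, a probe also entered through the brighter group alone. Its size then rests in part on values at background, and its adjusted p adds little. KCTD11, an adaptor known as an antagonist of Hedgehog signalling, was higher in fat than in liver at 5 months by 1.08 ± 0.17 (SE, adjusted p = 1.01e-06), with differences of means of 0.33 in LWDL and 1.93 in LWDM.

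Among the other BTB proteins, KCTD8, an auxiliary subunit of GABA-B receptors, stood out in fat of fattening pigs, with values from 2.38 to 6.60 (median 5.10). It was well above background on 14 of 15 fat arrays, 7 of 15 muscle arrays and none of 15 liver arrays, and 13 of the 15 liver ratios were exactly 0. Fat was at least 2.40-fold above liver (adjusted p = 1.99e-16), and muscle was below fat by a log2 difference of -2.46 ± 0.33 (SE, adjusted p = 6.78e-08). The latter size rests in part on muscle values at background. BTBD11 was higher in fat than in liver by 2.13 ± 0.26 (SE, adjusted p = 9.50e-08) at 12 days and 1.85 ± 0.17 (SE, adjusted p = 1.44e-11) at 5 months. In muscle it exceeded liver by 2.12 ± 0.22 (SE, adjusted p = 2.66e-09) in fetuses and by 3.11 ± 0.21 (SE, adjusted p = 1.22e-14) in fattening pigs. In liver BTBD11 was well above background on 10 of 12 fetal, 7 of 11 suckling and 8 of 15 fattening arrays, so these sizes rest in part on values at background. BTBD19 was well above background on 10 of 11 fat arrays and none of 11 muscle arrays of sucklings, and was at least 1.35-fold higher in fat (adjusted p = 6.11e-12).

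Of the conjugating enzymes, UBE2QL1 was lower in liver than in the other tissues at each age. In fetuses it ranged from -5.62 to -1.12 (median -4.34) in liver, where 5 of 12 arrays were well above background, and from -0.84 to 0.65 (median -0.12) in muscle. The groups did not overlap and muscle was higher by 4.17 ± 0.39 (SE, adjusted p = 4.74e-10). At 5 months it ranged from -4.56 to -0.20 (median -2.82) in liver, -1.92 to 1.27 (median 0.42) in fat and 1.59 to 2.37 (median 1.87) in muscle. Muscle exceeded liver by 4.56 ± 0.35 (SE, adjusted p = 2.58e-13) and fat by 1.93 ± 0.22 (SE, adjusted p = 2.74e-09), and all muscle arrays lay above all fat arrays. UBE2H, a conjugating enzyme known from red cell maturation, was called between tissues in sucklings, where muscle exceeded liver by 1.24 ± 0.23 (SE, adjusted p = 6.66e-05).

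The UBX domain proteins, which are cofactors of the p97 unfoldase, went in opposite directions. UBXN10 was highest in liver. It ranged from 2.27 to 3.47 (median 3.04) in suckling liver and was well above background on all 11 liver arrays and on none of 11 fat and 11 muscle arrays. Liver was at least 3.04-fold above fat (adjusted p = 5.95e-16) and at least 2.93-fold above muscle (adjusted p = 2.28e-13) at 12 days. At 5 months liver ranged from -1.95 to 1.85 (median 0.17), and the bounds were 1.24-fold over fat (adjusted p = 1.04e-08) and 1.26-fold over muscle (adjusted p = 2.47e-08). Its other probe followed it over the 102 arrays (r = 0.931, arrays of all groups pooled), but was well above background on 1 of 11 suckling muscle arrays, whose value (2.48) reached the lowest of suckling liver (2.47). UBXN2B ranged from -2.24 to -1.07 (median -1.57) in suckling fat and from -0.56 to 1.46 (median 0.76) in suckling muscle, and muscle was higher by 2.35 ± 0.19 (SE, adjusted p = 7.07e-10). At 5 months muscle exceeded fat by 2.42 ± 0.09 (SE, adjusted p = 2.98e-21). Both probes of UBXN2B were higher in muscle, but the difference was smaller in the other at 12 days (1.12), and these 2 probes agreed less well (r = 0.782). UBAP2, a protein with a ubiquitin binding UBA domain, was lower in fetal muscle than in liver by a log2 difference of -2.64 ± 0.20 (SE, adjusted p = 7.19e-12).

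**Figure D2:**
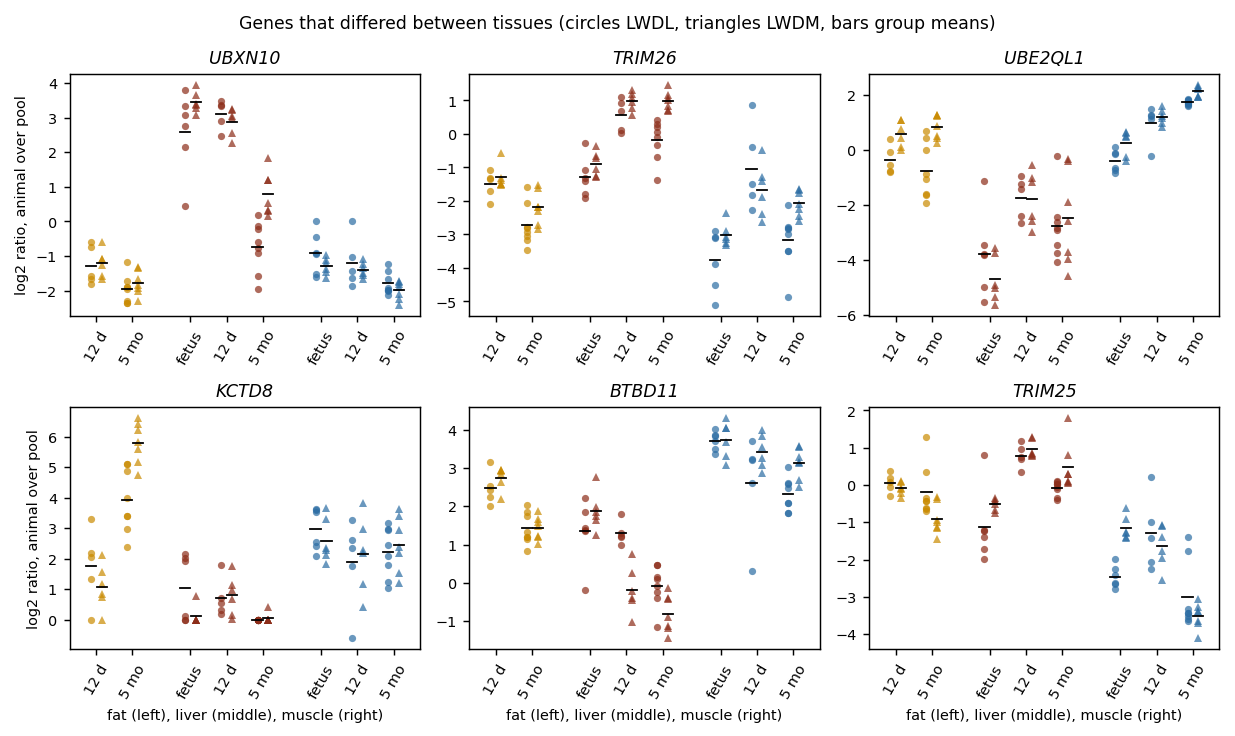
Log2 ratio of animal over pool for 6 genes in fat, liver and muscle at each age, 1 point an array (circles LWDL, triangles LWDM) and bars for group means. UBXN10 lay highest in fetal and suckling liver and KCTD8 in fat at 5 months, and TRIM25 lay lowest in muscle at 5 months, with medians of 3.31, 3.04, 5.10 and -3.42.

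Of the TRIM proteins, RING ligases many of which act in antiviral defence, TRIM15 and TRIM26 were lower outside the liver. TRIM26 ranged from -3.46 to -1.54 (median -2.72) in fat, -1.38 to 1.46 (median 0.42) in liver and -4.86 to -1.64 (median -2.59) in muscle at 5 months. It was well above background on 5 of 15 fat and 9 of 15 muscle arrays, so the size of its differences rests in part on values at background. All fat and muscle arrays lay below all liver arrays, with log2 differences of -2.84 ± 0.19 (SE, adjusted p = 7.28e-15) and -3.01 ± 0.20 (SE, adjusted p = 3.26e-15). TRIM15 was lower than in liver, with log2 differences of -2.84 ± 0.13 (SE, adjusted p = 2.55e-16) in fetal muscle and -2.25 ± 0.16 (SE, adjusted p = 1.22e-11) in suckling fat, where 8 of 12 and 7 of 11 arrays were well above background. TRIM25, the ligase that activates the RNA sensor RIG-I, ranged from -4.11 to -1.41 (median -3.42) in muscle at 5 months against -1.44 to 1.28 (median -0.62) in fat, so that the highest muscle array reached the lowest fat array. Muscle was lower than fat by a log2 difference of -2.72 ± 0.22 (SE, adjusted p = 9.35e-13) and lower than liver by one of -3.43 ± 0.22 (SE, adjusted p = 3.41e-15). RNF125, a RING ligase that limits RIG-I signalling, was lower in muscle than in fat at 5 months by a log2 difference of -2.64 ± 0.11 (SE, adjusted p = 6.50e-20), with no overlap between the 15 arrays of each tissue. Among the other ligases, RNF144A was lower in muscle than in liver at 5 months (-1.57 ± 0.14, SE, adjusted p = 3.43e-12) and DTX3L, a partner of PARP9, was lower in fetal muscle, where 5 of 12 arrays were well above background, than in fetal liver (-1.71 ± 0.23, SE, adjusted p = 2.51e-07).

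Across all 3 ages, 9 of 32 member probes, of 8 genes, were called the same way between muscle and liver (20.3% of all probes): BTBD1, BTBD11 and UBE2QL1 were higher in muscle, and DTX3L, TRIM15, TRIM26, UBAP2 and UBXN10 were lower. At both ages 8 of 34, of 7 genes, were called the same way between fat and liver (23.8% of all), BTBD11, BTBD19 and UBE2QL1 higher in fat and TRIM15, TRIM26, UBAP2 and UBXN10 lower. Some of these were under 2-fold in 1 breed type. Muscle minus liver was -2.15 in LWDL and -0.36 in LWDM for DTX3L at 12 days and -1.57 and -0.79 at 5 months. For TRIM15 at 12 days it was -0.88 and -1.36. For UBAP2 it was -1.15 and -0.90 at 12 days and -1.58 and -0.91 at 5 months. Fat minus liver was -0.99 and -1.10 for UBAP2 at 12 days. SOCS2 was higher in muscle than in liver in fetuses (2.01 ± 0.07, SE, adjusted p = 1.28e-18) and lower at 5 months (-1.06 ± 0.24, SE, adjusted p = 0.000184), with a difference at 5 months of -2.02 in LWDL and 0.03 in LWDM. With normexp background correction and loess in place of the scanner's processing, 18 of the described tissue and age results fell under 2-fold or lost their call. Among them were all those of DTX3L and those of BTBD11 in fat against liver at both ages. Of 138 called differences of tissue or age (1 probe per gene), 135 had the same sign in both breed types and 103 were over 2-fold in both. The muscle fibre markers in fat are given above, and their part in the fat values of ASB1, BTBD1, UBXN2B and UBE2QL1, which were higher in muscle, was not tested.

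How the members changed with age was tested in each tissue. In liver from fetus to 12 days, 16 of 35 members were called (22.4% of all probes), 7 rising (10.5% of all) and 9 falling (11.9%), and in muscle 12 of 33 members were called (27.2% of all probes), 8 rising (12.2% of all) and 4 falling (15%). From 12 days to 5 months in fat, 12 of 34 members were called (16.2% of all probes), 5 rising (8.29% of all) and 7 falling (7.95%). In liver over that step 19 of 35 members were called (28.1% of all probes), 11 rising (19.2% of all) and 8 falling (8.86%), and in muscle 12 of 31 members were called (24.8% of all probes), 5 rising (17% of all) and 7 falling (7.81%). From 12 days to 5 months 7 of 29 member probes, of 4 genes, were called in the same direction in all 3 tissues (5.49% of all probes): UBE2H and HERC4 rose, and SOCS2 and ASB1 fell. For ASB1 the changes of means were -2.35, -2.55 and -2.10 in LWDL and -0.70, -0.78 and -0.48, under 2-fold, in LWDM (fat, liver and muscle), and 4 low LWDL pigs described below enter them.

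UBE2H fell in liver from -0.45 to 0.39 (median -0.12) in fetuses to -3.10 to -1.74 (median -2.14) at 12 days, and was back at -0.29 to 1.02 (median 0.14) at 5 months. The suckling arrays overlapped with neither of the other ages. The step from fetus to suckling was -2.09 ± 0.13 (SE, adjusted p = 2.40e-12) and the later one 2.40 ± 0.14 (SE, adjusted p = 1.33e-14). In fat it rose by 1.78 ± 0.09 (SE, adjusted p = 2.34e-14) and in muscle by 1.84 ± 0.19 (SE, adjusted p = 4.94e-09), again with no overlap between the ages. The only erythroid marker with a named probe, HBE1 of 11 listed, had group medians of 4.03 and 3.13 in fetal liver, 0.84 and -0.69 at 12 days and -0.99 and -2.25 at 5 months (LWDL and LWDM), and its part in the UBE2H values was not tested. UBE2T, the conjugating enzyme of the Fanconi anaemia pathway of DNA repair, fell from 12 days to 5 months, with changes of -1.15 ± 0.30 (SE, adjusted p = 0.00153) in fat (-1.77 in LWDL, -0.55 in LWDM) and -1.76 ± 0.34 (SE, adjusted p = 6.78e-05) in muscle, where 3 of 15 fattening arrays were well above background. CCNB2, the 1 named gene of 18 listed for proliferation, had medians of 3.83 and 4.05 in suckling fat and 1.17 and 3.59 in fattening fat (LWDL and LWDM), and its part in the UBE2T values was not tested. UBE2QL1 rose from fetus to suckling by 2.50 ± 0.43 (SE, adjusted p = 1.67e-05) in liver and 1.15 ± 0.19 (SE, adjusted p = 1.35e-05) in muscle (1.38 in LWDL, 0.95 in LWDM). Only 5 of 12 fetal liver arrays were well above background, so the size in liver starts in part from background.

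Among the ligases, HERC4, of the HECT class, ranged from -2.30 to -1.71 (median -2.02) in suckling liver and from -0.37 to 0.67 (median 0.11) in fattening liver. The ages did not overlap, and it rose by 2.02 ± 0.07 (SE, adjusted p = 1.82e-18). The rise was 1.20 ± 0.09 (SE, adjusted p = 2.06e-11) in fat and 1.57 ± 0.19 (SE, adjusted p = 6.73e-08) in muscle. RNF182, a membrane RING ligase, was well above background on 11 of 12 fetal, 3 of 11 suckling and none of 15 fattening liver arrays. It ranged from 0.00 to 5.18 (median 3.71) in fetal liver, with the 0 on the array standing apart, and from -1.90 to 2.55 (median -0.45) in suckling liver, a change of -3.92 ± 0.44 (SE, adjusted p = 4.18e-08). RNF182 entered this test through fetal liver alone, so the size rests in part on values at background. UBE3C, a HECT ligase that works at the proteasome, rose from 12 days to 5 months by 1.49 ± 0.30 (SE, adjusted p = 7.42e-05) in liver and 1.42 ± 0.40 (SE, adjusted p = 0.00278) in muscle, but only 2 of 11 suckling arrays of either tissue were well above background, so these sizes start from values at background, and the rise in muscle was 2.31 in LWDL and 0.58 in LWDM. RNF125 rose in liver by 1.58 ± 0.16 (SE, adjusted p = 1.34e-09) over the same step. USP3, which removes ubiquitin from histone H2A, fell from fetus to suckling, with changes of -1.19 ± 0.12 (SE, adjusted p = 1.42e-08) in liver and -1.12 ± 0.24 (SE, adjusted p = 0.000335) in muscle (-1.62 in LWDL, -0.66 in LWDM). It then rose by 1.21 ± 0.13 (SE, adjusted p = 3.34e-09) in liver and 1.29 ± 0.12 (SE, adjusted p = 7.57e-10) in fat.

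**Figure D3:**
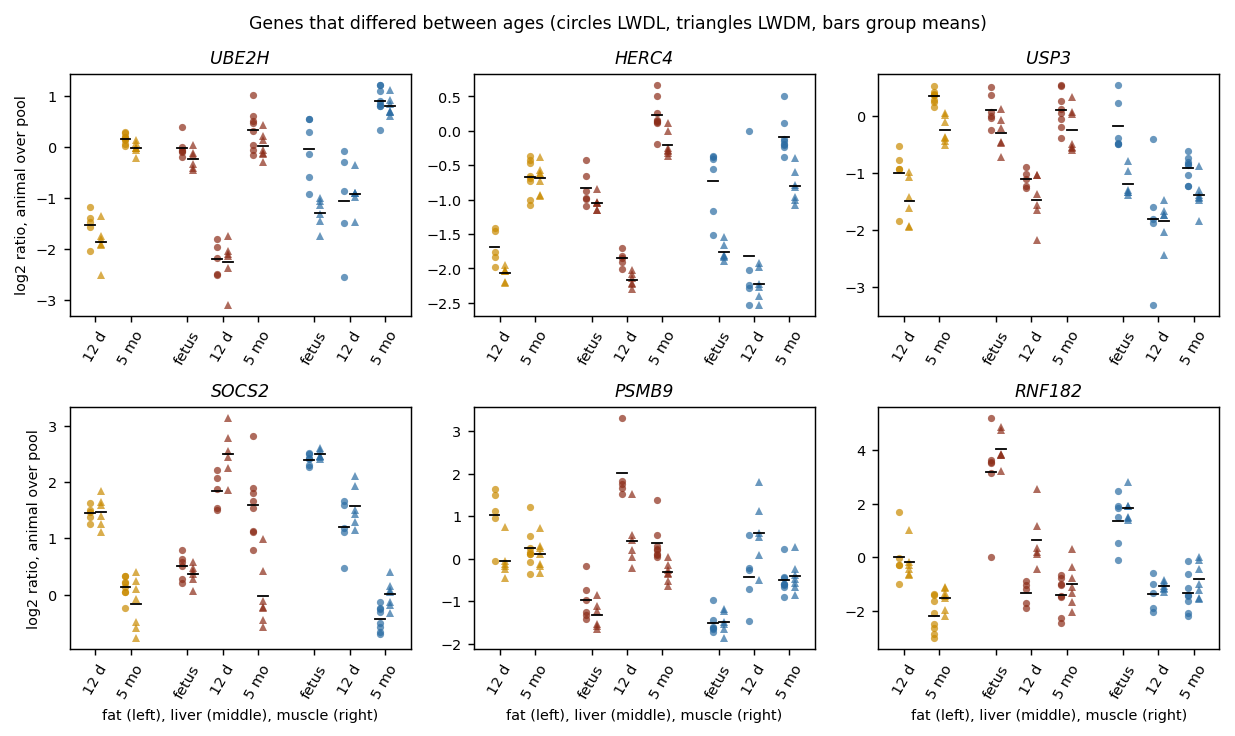
Log2 ratio of animal over pool for 6 genes by age within fat, liver and muscle, 1 point an array (circles LWDL, triangles LWDM) and bars for group means. UBE2H, HERC4 and USP3 were low at 12 days in liver, with medians of -2.14, -2.02 and -1.23, where SOCS2 and PSMB9 were high, with medians of 2.21 and 1.53.

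SOCS2, the cullin 5 adaptor that dampens growth hormone signalling, ranged from 0.07 to 0.79 (median 0.45) in fetal liver and from 1.50 to 3.13 (median 2.21) in suckling liver, with no overlap. It rose there by 1.76 ± 0.15 (SE, adjusted p = 4.43e-10), whereas in muscle it fell, with a change of -1.06 ± 0.13 (SE, adjusted p = 1.75e-07; -1.20 in LWDL, -0.93 in LWDM). Without the suckling muscle array that stands apart the change in muscle was -0.97 in log2, under 2-fold (adjusted p = 1.21e-08), and the other probe of SOCS2 was not called there with all arrays (-0.81). From 12 days to 5 months it fell in each tissue, with changes of -1.48 ± 0.12 (SE, adjusted p = 3.68e-11) in fat, -1.41 ± 0.30 (SE, adjusted p = 0.000106) in liver (-0.24 in LWDL, -2.53 in LWDM) and -1.59 ± 0.13 (SE, adjusted p = 7.32e-11) in muscle. Of 8 genes listed for the growth hormone and STAT5 response 5 were named, and 4 of these rose in liver from fetus to suckling (10.5% of all probes), SOCS2 beside IGF1 (1.84 ± 0.27, SE, adjusted p = 1.73e-06), GHR (1.21 ± 0.32, SE, adjusted p = 0.00175) and CYP2C18 (6.50 ± 0.88, SE, adjusted p = 7.22e-07). From 12 days to 5 months GHR rose in liver by 2.72 ± 0.12 (SE, adjusted p = 8.49e-17). ASB1 fell in liver, with changes of -1.31 ± 0.29 (SE, adjusted p = 0.000272) from fetus to suckling and -1.65 ± 0.43 (SE, adjusted p = 0.00109) after that, and in fat, with -1.50 ± 0.38 (SE, adjusted p = 0.000904). The muscle fibre markers of fat also had lower medians at 5 months (1.30 and 3.17 in LWDL and LWDM) than at 12 days (4.56 and 5.28), and their part in the fall of ASB1 in fat was not tested. KCTD8 rose in fat by 3.47 ± 0.42 (SE, adjusted p = 6.47e-08), from 4 of 11 arrays well above background to 14 of 15, so that the size starts in part from background, and the rise was 2.14 in LWDL and 4.73 in LWDM. It was not certain from the study's lists which age the fat arrays had, so both were tried. The ages were exchanged only for fat arrays whose breed type and number occurred at both ages. The other fattening fat arrays kept their age, so the exchanged fattening group held both ages. With this exchange the changes in fat turned for KCTD8 (-3.23), UBE2H (-1.35), ASB1 (1.54), SOCS2 (1.02) and USP3 (-1.04). All 26 fat arrays were nearest to liver arrays of their labelled age.

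PSMB9, a catalytic subunit of the immunoproteasome, was the member of the proteasome itself. It ranged from -1.66 to -0.16 (median -1.24) in fetal liver, -0.23 to 3.30 (median 1.53) in suckling liver and -0.64 to 1.38 (median 0.04) in fattening liver. It rose by 2.35 ± 0.25 (SE, adjusted p = 1.67e-08) and then fell, with a change of -1.19 ± 0.21 (SE, adjusted p = 1.09e-05), which was -1.65 in LWDL and -0.75 in LWDM. In muscle it rose from fetus to suckling by 1.62 ± 0.25 (SE, adjusted p = 4.90e-06). Of the 9 genes listed for the immunoproteasome and peptide loading 3 were named, and all 3 rose in liver in that step (10.5% of all probes), with TAP1 at 1.91 ± 0.27 (SE, adjusted p = 1.53e-06) and TAP2 at 2.22 ± 0.21 (SE, adjusted p = 3.98e-09). In muscle both genes tested, PSMB9 and TAP2, rose (12.2% of all probes), and from 12 days to 5 months 2 of 3 fell in liver (8.86% of all). The interferon-stimulated list, with 6 of 24 genes named, held the members DTX3L and TRIM25. In liver 5 of the 6 rose from fetus to suckling (10.5% of all probes), DTX3L by 1.20 ± 0.30 (SE, adjusted p = 0.000916; 1.94 in LWDL and 0.53 in LWDM), TRIM25 by 1.69 ± 0.22 (SE, adjusted p = 3.40e-07) and GBP1, a guanylate binding protein, by 4.02 ± 0.35 (SE, adjusted p = 8.44e-10). In muscle 4 of the 6 rose (12.2% of all probes), DTX3L by 1.68 ± 0.21 (SE, adjusted p = 3.12e-07), and TRIM25 did not pass (0.29 ± 0.29, SE, adjusted p = 0.37). The immune cell markers (7 of 16 named) had medians of -1.42 and -1.62 in fetal liver and 0.42 and -0.61 in suckling liver (LWDL and LWDM), and their part in these changes was not tested.

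Other members that led an age step were UBXN2B, UBXN10, TRIM26, TRIM25, TRIM37, UBAC2 and KLHL5. UBXN2B ranged from -1.56 to -0.89 (median -1.18) in fetal muscle, below every suckling muscle array, and rose by 1.90 ± 0.15 (SE, adjusted p = 3.27e-10). Its other probe did not follow this step (0.02, not called), with means of -0.14 in fetal and -0.10 in suckling muscle and overlapping ranges. UBXN10 fell in liver from 12 days to 5 months with a change of -2.95 ± 0.28 (SE, adjusted p = 2.81e-10), to a level at which 9 of 15 arrays were well above background, and it was -3.86 in LWDL, where 2 of 8 were, and -2.09 in LWDM. With this probe no fattening array reached the suckling ones, and with the other the ages overlapped (2.53 at most in fattening and 2.47 at least in suckling liver). TRIM26 rose in liver from fetus to suckling by 1.86 ± 0.17 (SE, adjusted p = 2.19e-09). In muscle from 12 days to 5 months TRIM25 and TRIM37 fell, with changes of -1.79 ± 0.27 (SE, adjusted p = 2.47e-06) and -1.69 ± 0.38 (SE, adjusted p = 0.000335; TRIM37 was well above background on 7 of 15 fattening arrays), and UBAC2, a UBA domain protein of the endoplasmic reticulum, rose by 1.61 ± 0.28 (SE, adjusted p = 1.28e-05). The change was -0.81 in LWDL and -2.54 in LWDM for TRIM37 and 0.71 and 2.47 for UBAC2. Both splits are uncertain, since the breed-type labels of suckling muscle go against the other tissues, as described below. KLHL5 fell in muscle from fetus to suckling, with a change of -1.13 ± 0.22 (SE, adjusted p = 0.000119), and was well above background on 11 of 12 fetal and 3 of 11 suckling arrays.

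Whether a step of age differed between tissues was tested as an interaction over the 2 tissues. The 2 tissues of an animal were taken as independent arrays. Breed type was a term, but not its change with tissue or age. From fetus to suckling, 14 of 38 member probes differed between muscle and liver (25.6% of all probes). For SOCS2 the step in muscle minus that in liver was -2.81 ± 0.19 (SE, adjusted p = 6.79e-16), and for 1 probe of UBXN2B it was 2.80 ± 0.22 (SE, adjusted p = 4.45e-14), but for its other probe 0.94, which was not called. UBE2H, which fell in liver, had a difference of 1.78 ± 0.31 (SE, adjusted p = 6.52e-06). From 12 days to 5 months, 9 of 36 differed between muscle and liver (15.9% of all) and 10 of 38 between fat and liver (18.4%). For RNF125 the former difference was -2.51 ± 0.22 (SE, adjusted p = 2.66e-13) and the latter -1.61 ± 0.21 (SE, adjusted p = 7.61e-09). Of these called probes 1, 2 and 4 had no array well above background in a tissue at 1 of the ages (probes of KCTD8, MARCH11, UBXN10 and TRIM15), and no size is given for those. Without the 2 arrays that stand apart the counts were 17, 9 and 10, and in the second TRIM25 lost its call (-0.88) and BTBD19 gained one.

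The values that chose the members, the breed-type differences, are described next as LWDM minus LWDL. Called here says only that a probe passed the limits of the other comparisons in the present fit, and since such differences chose the members it is no test of them. Of the 42 probes, 41 passed the background filter in at least 1 of the 8 breed comparisons (1 TRIM37 probe never did) and 24 in all 8. In suckling fat 5 of 32 members were called (1.47% of all probes), 2 higher (0.689% of all) and 3 lower (0.78%), and in fattening fat 6 of 32 members were called (3.08% of all probes), 5 higher (1.77% of all) and 1 lower (1.31%). In fetal liver 5 of 34 members were called (0.834% of all probes), 1 higher (0.451% of all) and 4 lower (0.383%). In suckling liver 8 of 32 members were called (1.7% of all probes), 2 higher (0.78% of all) and 6 lower (0.924%), and in fattening liver 11 of 34 members were called (2.19% of all probes), 6 higher (1.1% of all) and 5 lower (1.09%). In fetal muscle 11 of 32 members were called (1.51% of all probes), 5 higher (0.673% of all) and 6 lower (0.835%), and in fattening muscle 3 of 29 members were called (1.4% of all probes), 2 higher (0.799% of all) and 1 lower (0.605%). The breed types did not overlap for 7 of 32 members in suckling fat (5.48% of all probes) and 4 of 32 in fattening fat (7.38%). In liver they did not for 6 of 34 in fetuses (5.28%), 9 of 32 in sucklings (6.69%) and 5 of 34 in fattening pigs (6.54%). In muscle they did not for 14 of 32 in fetuses (5.55%) and 3 of 29 in fattening pigs (8.48%). Nothing is read from these counts, since the members were listed for such differences. Just inside the 2-fold limit lay UBE2T (1.00) and USP3 (-1.01) in fetal muscle and KCTD3 in suckling fat (1.01). HERC4 in fetal muscle and UBAP2 in fattening liver were close to it as well. Just outside lay UBAC2 in suckling fat (0.99). In fetuses and sucklings 1 slide of each tissue held 2 arrays of each breed type, and the called differences were also taken within it, over part of the same arrays. They were smaller there in fetal muscle for UBE2H (-0.31 against -1.25), UBE2T (0.14 against 1.00), HERC4 (-0.38 against -1.03), TRIM37 (-0.46 against -1.13) and USP3 (-0.61 against -1.01), and for PSMB9 in suckling liver (-0.65 against -1.58). With the slide as a block in the fit the counts called were 0 in suckling fat, 0 in fetal liver, 2 in suckling liver and 0 in fetal muscle. That fit takes the difference from these 2 against 2 arrays alone, so fewer arrays and a slide effect cannot be told apart in the lost calls. In fattening pigs each slide held 1 breed type, so a slide effect and breed type cannot be told apart within slides.

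There were 6 genes called in 2 or more comparisons. RNF144A, a RING-between-RING ligase, was lower in LWDM in fat of both ages, in fetal and suckling liver and in fetal muscle. In suckling fat it read 0.24, -0.14, 0.30, -0.24 and -0.83 in LWDL and -1.76 to -1.43 (median -1.68) in LWDM, a gap with no overlap. The difference was -1.52 there, -1.19 in fattening fat, -1.34, -1.10 and -0.73 in liver from fetus to fattening, and -1.40 and -0.72 in fetal and fattening muscle. TRIM45 was lower in LWDM in suckling fat (-1.07) and suckling liver (-1.63), with no overlap in either. TRIM37, a ligase that limits centriole formation, was lower in suckling liver (-1.52), fattening liver (-1.33) and fetal muscle (-1.13, smaller within the slide). KCTD3 was higher in LWDM in suckling fat (1.01, smaller within the slide) and suckling liver (1.15), again without overlap. BTBD1 was higher in suckling fat (1.83, smaller within the slide) and fetal muscle (1.52). ASB1 was higher at 5 months in fat (1.80), liver (1.78) and muscle (2.28), whereas in fetuses and in sucklings its difference lay between 0.01 and 0.66. Both probes of ASB1 moved together (r = 0.975 over the 102 arrays), though the other probe was not called in fattening liver (1.82).

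Other members differed in 1 comparison. In fattening fat, the adaptor KCTD11 ranged from 0.22 to 0.94 (median 0.43) in LWDL and from 1.59 to 2.73 (median 2.10) in LWDM, without overlap, a difference of 1.62. KCTD8 and UBE2QL1 were also higher there, by 1.89 and 1.58. The muscle fibre markers of the same arrays averaged 0.66 to 3.12 in LWDL and 2.55 to 4.54 in LWDM (8 of 9 tested were called higher in LWDM, 1.77% of all probes, against 0 of 11 in suckling fat, 0.689% of all), and their part in the fat values of ASB1 and UBE2QL1 was not tested. In fattening liver SOCS2 was lower in LWDM by a log2 difference of -1.62, with 0.80 to 2.82 (median 1.60) in LWDL and -0.57 to 0.98 (median -0.22) in LWDM, which overlapped. UBXN10, TRIM26 and TRIM15, which liver holds at higher levels than the other tissues, were higher in LWDM there by 1.54, 1.18 and 1.05, but UBXN10 was well above background on only 2 of 8 LWDL arrays (7 of 7 LWDM). In suckling liver PSMB9 and BTBD11 were lower in LWDM (-1.58 and -1.47, both smaller within the slide) and UBAC2 was higher (1.17), with BTBD11 well above background on 5 of 5 LWDL and 2 of 6 LWDM arrays. The immune cell markers averaged 0.32 to 0.83 in LWDL and -0.87 to 0.01 in LWDM in these livers, and their part in the PSMB9 values was not tested. In fetal liver the 3 probes of RNF13, an endosomal RING ligase, were lower by -1.24 to -1.31 with no overlap and tracked one another closely (r = 0.993 to 0.994). In fetal muscle UBE2H, HERC4 and USP3 were lower in LWDM (-1.25, -1.03 and -1.01, all smaller within the slide) and MARCH11 and TRIM25 higher (1.55 and 1.31, the latter smaller within the slide), with MARCH11 well above background on 6 of 6 LWDM and 1 of 6 LWDL arrays. In fattening muscle UBE3C was lower, by a log2 difference of -1.28. UBASH3A, a ubiquitin associated protein known from T cells, was higher in LWDM in fetal liver (1.29), where 6 of 6 LWDM and 2 of 6 LWDL arrays were well above background. UBAP2 was lower in fattening liver (-1.02), without overlap. Where a probe was at background in the lower group, the size of its difference was not measured. BTBD19, DTX3L, KLHL5, RNF125 and RNF182 were called in no breed comparison. For UBXN2B, 1 probe was lower in fattening liver (-1.25) and the other was higher in fetal muscle (1.04).

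**Figure D4:**
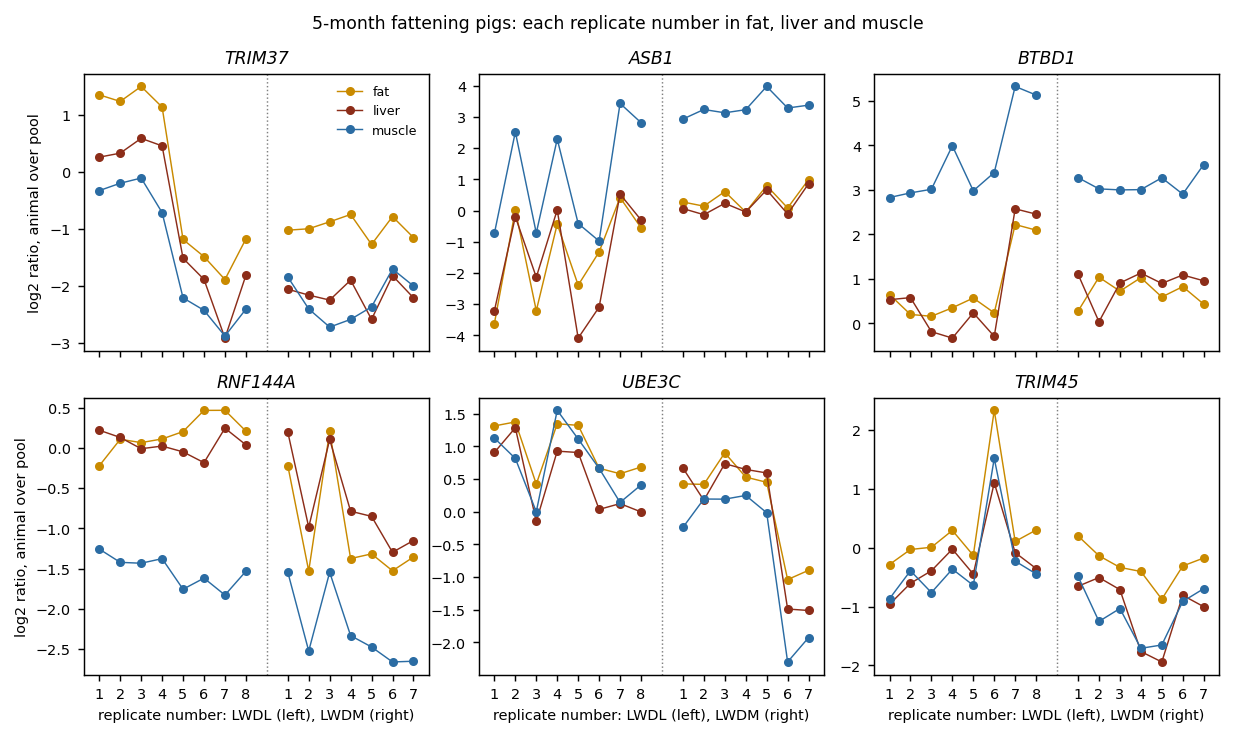
Log2 ratio of animal over pool (y axis) for 6 genes in fattening pigs, by replicate number (x axis, LWDL left and LWDM right of the dotted line), with fat, liver and muscle in colours and lines only to guide the eye. The 3 tissues show the same pattern over the numbers, with TRIM37 high in LWDL 1 to 4 (which shared 1 slide in each tissue), BTBD1 in LWDL 7 and 8, TRIM45 in LWDL 6, and UBE3C low in LWDM 6 and 7.

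Several of these group differences came from part of the animals of a group, and the same replicate numbers were high or low in each tissue. TRIM37 in fattening LWDL read 1.36, 1.24, 1.51, 1.14, -1.18, -1.48, -1.88 and -1.17 in fat for replicates 1 to 8, and 0.27, 0.34, 0.59, 0.46, -1.51, -1.88, -2.91 and -1.81 in liver. Replicates 1 to 4 were high in both, and also in muscle, where they read between -0.71 and -0.10 against -2.88 to -2.21 for the others. In each tissue replicates 1 to 4 shared 1 slide and 5 to 8 another, so for TRIM37 slide and animal cannot be told apart. The 7 LWDM pigs all read low, from -1.27 to -0.74 (median -0.99) in fat and from -2.58 to -1.81 (median -2.16) in liver. ASB1 in fattening LWDL read -0.73, 2.52, -0.72, 2.30, -0.41, -0.97, 3.44 and 2.82 in muscle, and replicates 1, 3, 5 and 6 were also the 4 lowest in fat and in liver. The LWDM pigs read 2.94 to 3.98 (median 3.24) in muscle, with no such low animal. BTBD1 was high in LWDL replicates 7 and 8 (2.10 to 2.22 in fat, 2.45 to 2.57 in liver and 5.13 to 5.32 in muscle) and at most 0.65, 0.58 and 3.99 in the other LWDL pigs. UBE3C, lower in LWDM muscle on average, read -2.30 and -1.93 in LWDM replicates 6 and 7 and -0.24 to 0.25 in the other 5, and these 2 pigs were also low in fat and liver. RNF144A in fattening LWDM read -0.22, -1.53, 0.20, -1.38, -1.32, -1.53 and -1.36 in fat, so that replicates 1 and 3 lay among the LWDL pigs, as they did in liver and in muscle.

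The same was seen at the earlier ages. TRIM37 in fetal LWDL read 0.15, -1.49, 2.10, 2.42, 0.09 and 0.27 in liver (replicate 2 being the array that stands apart) and -0.22, -0.23, 1.57, 1.49, -0.25 and -0.27 in muscle, with replicates 3 and 4 high in both. In suckling LWDL it read -0.48, 1.29, -0.46, 1.36 and 0.06 in fat and 0.09, 1.59, -0.27, 1.46 and -0.05 in liver, with replicates 2 and 4 high in both. BTBD1 in fetal LWDM read 1.80, 1.78, 2.08, -0.15, 1.70 and 0.27 in liver and 4.78, 4.71, 4.60, 2.51, 4.88 and 2.54 in muscle, where replicates 4 and 6 were low. In suckling LWDM replicates 1 and 5 were low in both fat (1.31, 3.09, 3.15, 3.13, 1.29 and 3.24) and liver (1.12, 2.83, 2.35, 2.73, 0.78 and 3.13). By a rule set after these values were seen, a probe was counted where the largest gap within a breed type exceeded 1 in log2 in each tissue and the same replicate numbers lay above it, among probes past the background filter in each of those tissues. TRIM37 did not pass it in fattening muscle and so is not counted at 5 months. In fattening pigs (fat, liver and muscle) 3 of 27 member probes met it in LWDL (0.33% of all probes) and 1 of 27 in LWDM (0.118%). In sucklings (fat and liver) the counts were 4 of 29 (0.425%) and 1 of 29 (0.25%), and in fetuses 1 of 28 (0.0923%) and 1 of 28 (0.196%). In all they were 8 probes of 6 genes, TRIM37, BTBD1, TRIM45, UBE3C, RNF13 and DTX3L. Such gaps enter the differences between breed types that chose the members, so the counts are a description. Over the 300 probes with the widest spread within groups of both fat and liver, 15 of 15 fattening fat arrays, 15 of 15 fattening muscle arrays and 9 of 11 suckling fat arrays were nearest to the liver array with the same age, breed type and number.

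Suckling muscle was the comparison in which the study listed no probe, so it could be tested. None of 29 members was called by limma, 2 had an unadjusted p under 0.05 and the lowest adjusted p was 0.711. Over all probes 0% were called and 793 had an unadjusted p under 0.05. DTX3L was higher in LWDM by 1.30 (adjusted p = 0.711) and PSMB9 by 1.03 (adjusted p = 0.711). The groups were apart for DTX3L, 1 of 29 members (0.383% of all probes). LWDL replicates 3, 4 and 5 were alone on a slide scanned on another day than the other 8 arrays, and with the slide as a block 0 members were called as well. The labels of these 11 arrays go against the other tissues: none was nearest to the liver array of its own number, and 8 were nearest to a liver array of the other breed type. Of the 8 members called in suckling liver 7 had the opposite sign in suckling muscle, and of the 5 called in suckling fat 4 had, with 4 probes in both sets. Over all probes called there and tested in suckling muscle the shares were 67.3% and 63.3%. TRIM37, which was high in 2 LWDL sucklings in fat and liver, was high in muscle arrays labelled LWDM replicates 4 and 6 (1.70 and 1.58, against at most 0.18 on the others). BTBD1, high in 4 LWDM sucklings in fat and liver, was high in muscle in LWDL replicates 3, 4 and 5 and LWDM replicate 2 (4.81 to 6.14, against at most 4.46), and these 3 LWDL arrays are those of the other scan day. Without a breed-type term, 26 of 26 gene results of tissue and age that use suckling muscle kept their call.

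**Figure D5:**
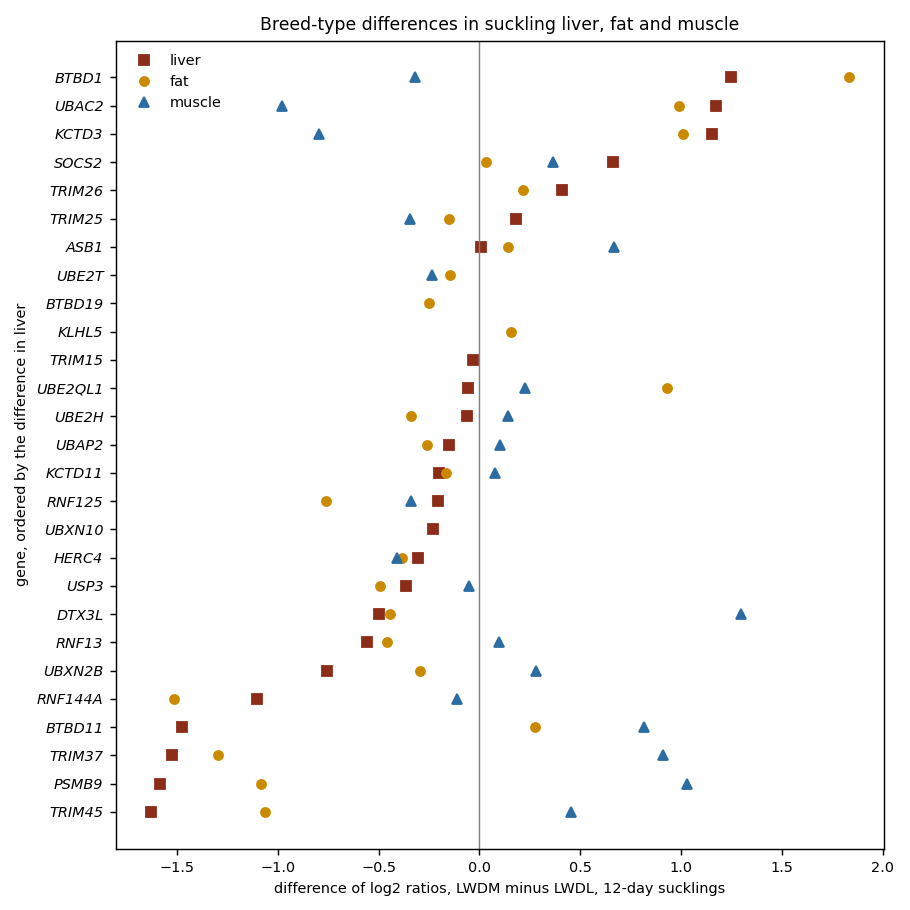
Difference of mean log2 ratios, LWDM minus LWDL (x axis), in 12-day sucklings for the member genes tested (rows, 1 probe each, ordered by the difference in liver, with genes not tested in liver placed at 0), in liver (squares), fat (circles) and muscle (triangles). TRIM45, PSMB9 and TRIM37 lay left of 0 in liver and fat and right of it in muscle, and KCTD3, UBAC2 and BTBD1 the reverse.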

How the data were processed

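Dual-colour Agilent porcine arrays were hybridised with Cy3-labeled RNA of 1 animal and a Cy5-labeled pool of liver RNA. Per the file headers, the deposited log10 ratios of Cy5 over Cy3 and the processed, median and background intensities are from Agilent Feature Extraction 9.5, which subtracted the background and normalized the dyes. The sign was turned and the log10 ratios were converted to log2 (animal over pool) here. Of 44638 spots, 1417 controls were left out, which gave 43221 probes. A probe was tested where it was well above background in Cy3 on all arrays of 1 or more of the compared groups (by tissue, age and breed type) and had at least 3 values on each side. Each array was 1 sample, and since the animals came from few litters, p-values measure the spread between these animals. The arrays of each comparison were fitted with limma 3.58.1 in R 4.3.3, with Benjamini-Hochberg adjustment over all probes tested. A call needed a difference over 2-fold and an adjusted p under 0.05. The script was tested on simulated data.

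Genes were named from the symbols in the study's lists of probes. Values were given for genes called in 2 or more breed comparisons, for the 5 called genes with the largest difference in each tissue or age comparison, and for members of the immunoproteasome, SOCS and interferon lists, and a gene was represented by its probe with the highest mean Cy3 signal. The members and lists were chosen with earlier results of these data known, and the gap rule, the within-slide values, the interactions, the values within a breed type and the fits without a breed-type term were added after seeing the data. Alternatives were the background correction, the filter, the slide, replicate block, the methods' t-test, a single fit over a tissue, the fat ages and left-out arrays.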

Additional observations from a re-analysis of the deposited data

Results flagged for a closer look

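Single arrays that lay far from the rest of their group were looked for in the member genes called in 2 or more breed comparisons or on the immunoproteasome, SOCS and interferon lists, in groups of 5 to 8 arrays. An array was far when its gap to the nearest other array, over the range of its group, passed the critical value of Dixon's test. Of 160 combinations of gene and group, 19 held such an array. The test by its level picks about 1 in 20 groups by chance, and the combinations share animals, so they are not independent.

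ASB1 read 3.50 in liver of LWDM fetus replicate 1 (others 2.02 to 2.35), 3.17 in muscle of LWDM fetus replicate 1 (others 2.23 to 2.45), 0.39 in muscle of LWDL suckling replicate 2 (others 3.52 to 4.10) and 3.98 in muscle of LWDM fattening replicate 5 (others 2.94 to 3.38). BTBD1 read 1.09 in liver of LWDL fetus replicate 2 (others -0.19 to 0.18), 0.04 in liver of LWDM fattening replicate 2 (others 0.90 to 1.13) and 6.14 in muscle of LWDM suckling replicate 2 (others 3.45 to 4.46). DTX3L read 1.26 in liver of LWDM suckling replicate 6 (others 0.11 to 0.54) and -0.71 in muscle of LWDL suckling replicate 4 (others -1.31 to -1.24). KCTD3 read 1.63 in muscle of LWDL fattening replicate 4 (others 0.80 to 1.03). PSMB9 read 0.74 in fat of LWDM suckling replicate 6 (others -0.44 to -0.05), 3.30 in liver of LWDL suckling replicate 3 (others 1.53 to 1.82), 1.38 in liver of LWDL fattening replicate 6 (others 0.04 to 0.57) and 0.23 in muscle of LWDL fattening replicate 6 (others -0.91 to -0.43). TRIM25 read 0.81 in liver of LWDL fetus replicate 2 (others -1.99 to -1.21) and 1.78 in liver of LWDM fattening replicate 3 (others 0.06 to 0.80). TRIM45 read 2.33 in fat of LWDL fattening replicate 6 (others -0.29 to 0.30), 1.10 in liver of LWDL fattening replicate 6 (others -0.96 to -0.03) and 1.51 in muscle of LWDL fattening replicate 6 (others -0.87 to -0.23). The arrays of LWDL suckling replicate 2 in muscle and LWDL fetus replicate 2 in liver are those that stood apart as a whole. TRIM45 was high in LWDL fattening replicate 6 in all 3 tissues, and PSMB9 in its liver and muscle.

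Age steps that differed between tissues were found with limma by an interaction term, with p-values adjusted over all probes and the tissues of an animal taken as independent arrays. The step from 12 days to 5 months differed between fat and liver (fat minus liver) for RNF125 (-1.61 ± 0.21, SE, adjusted p = 7.61e-09), TRIM15 (-1.29 ± 0.29, SE, adjusted p = 0.000144), UBE2T (1.17 ± 0.41, SE, adjusted p = 0.0132) and UBXN2B (-1.70 ± 0.21, SE, adjusted p = 2.77e-09). The same step differed between muscle and liver (muscle minus liver) for RNF125 (-2.51 ± 0.22, SE, adjusted p = 2.66e-13), RNF144A (-1.64 ± 0.22, SE, adjusted p = 3.08e-08), TRIM25 (-1.06 ± 0.34, SE, adjusted p = 0.00796), UBAC2 (1.11 ± 0.33, SE, adjusted p = 0.00472), UBE2QL1 (1.69 ± 0.49, SE, adjusted p = 0.00368) and UBXN2B (-1.63 ± 0.28, SE, adjusted p = 4.57e-06). Without the muscle array that stands apart TRIM25 lost this call (-0.88). With all arrays the other probe of UBXN2B was not called (-0.45). The step from fetus to suckling differed between muscle and liver (muscle minus liver) for ASB1 (2.33 ± 0.44, SE, adjusted p = 1.76e-05), KLHL5 (-1.13 ± 0.32, SE, adjusted p = 0.0029), RNF125 (1.63 ± 0.28, SE, adjusted p = 4.5e-06), SOCS2 (-2.81 ± 0.19, SE, adjusted p = 6.79e-16), TRIM15 (1.70 ± 0.28, SE, adjusted p = 2.21e-06), TRIM25 (-1.39 ± 0.36, SE, adjusted p = 0.00126), UBAP2 (1.62 ± 0.29, SE, adjusted p = 9.78e-06), UBE2H (1.78 ± 0.31, SE, adjusted p = 6.52e-06), UBE2QL1 (-1.30 ± 0.49, SE, adjusted p = 0.0241) and UBXN2B (2.80 ± 0.22, SE, adjusted p = 4.45e-14; its other probe, 0.94, was not called). Steps with no array well above background in a tissue at an age are left out here.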

How the results depend on the processing

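Counts of member probes called are given against those of the report. Normexp background correction with loess gave 3 in suckling fat, 1 in suckling liver, 2 in fattening liver and 4 in fetal muscle for breed type. It gave 10 for fetal muscle against liver, 10 for suckling muscle against liver, 5 for suckling muscle against fat, 9 for fattening fat against liver and 11 for fattening muscle against fat. For age it gave 5 in fat, 9 in liver and 5 in muscle from 12 days to 5 months and 4 in muscle from fetus to suckling, and 66 of 95 gene results kept their call, with no change of direction. The 11 lost by breed type were TRIM45 and KCTD3 in suckling fat and liver, ASB1 in fattening fat and liver, TRIM37 in suckling and fattening liver and fetal muscle, RNF144A in suckling liver and TRIM25 in fetal muscle. The 18 of tissue and age were DTX3L in muscle against liver at each age and from fetus to suckling in liver and muscle, BTBD11 in fat against liver at both ages, BTBD19 and TRIM25 in suckling muscle against fat, PSMB9 in suckling muscle against liver, UBE2QL1 from fetus to suckling in liver and KLHL5 in muscle, and, from 12 days to 5 months, ASB1 in fat and liver, USP3 in fat and UBE2T, TRIM37 and UBAC2 in muscle. Requiring every array well above background gave 3 in fattening fat, 4 in suckling liver and 7 in fattening liver for breed type, 5 for fetal muscle against liver, 4 for fat against liver in sucklings, and 4, 10 and 8 in fattening pigs for fat against liver, muscle against liver and muscle against fat. For age it gave 6 in fat and 12 in liver from 12 days to 5 months and 7 in muscle from fetus to suckling, and all 59 gene results that could be tested kept their call. With no filter, fattening muscle had 6 breed calls, and 4 of 95 gene results, all by breed type, lost their call.

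With the slide as a block the breed-type difference rests on the 2 against 2 arrays of 1 slide. The breed calls were then 0 in suckling fat, 0 in fetal liver, 2 in suckling liver and 0 in fetal muscle, and as a random block 0 in fattening muscle. As a block it ended 12 of 14 gene results by breed type, and as a random block 1 of 81. The methods' test ended 7 of 20 breed results after Benjamini-Hochberg adjustment and a single fit over the tissue 3 of 20. The cause was not tested. Without the array that stands apart fetal liver had 8 breed calls, and PSMB9 in suckling muscle against liver (-0.82, adjusted p = 0.0513 by limma) lost its call. With all arrays this PSMB9 difference was -2.43 in LWDL and 0.18 in LWDM by the labels.

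Replicate numbers paired the arrays (each pair's correlation over 0.1) for suckling fat and liver and for fattening muscle and fat. In comparisons of breed type or age the replicate block joins different animals, and by breed type in suckling fat 1 of 5 pairs was over 0.1. This block gave 3 breed calls in suckling fat, and 50 of 52 gene results kept their call. With the animal as a random block 43 of 43 gene results were unchanged.

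The fat ages were exchanged only for arrays whose breed type and number occurred at both ages, so the exchanged fattening group held both ages. With this exchange fattening fat had 1 breed call, and suckling fat against liver and muscle against fat had 22 and 19. The change from 12 days to 5 months in fat then reversed for KCTD8 (-3.23), UBE2H (-1.35), ASB1 (1.54), SOCS2 (1.02) and USP3 (-1.04). The calls lost were BTBD1 (0.36), TRIM45 (-0.28) and KCTD3 (0.11) by breed type in suckling fat, ASB1 (0.67) in fattening fat, BTBD11 (0.87) in suckling fat against liver and TRIM25 (-0.69) in suckling muscle against fat. The labels were used, since all 26 fat arrays were nearest to liver arrays of their labelled age.

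Leaving out each replicate in turn gave 2 to 7 breed calls in suckling fat (3 without LWDL replicate 1, 3 or 4 or LWDM replicate 3, and 2 without LWDM replicate 4), 7 to 9 in suckling liver and 0 to 0 in suckling muscle. The ranges were 9 to 10, 14 to 18 and 9 to 10 for suckling fat against liver, muscle against liver and muscle against fat. For age they were 11 to 13 in fat, 15 to 17 and 19 to 21 in liver, and 8 to 13 and 11 to 13 in muscle. Age and scan day cannot be told apart. For dim probes such as KCTD8 and MARCH11 the signal over background limits the precision.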
